A study of Mus musculus with 6 samples.

Results

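JAK kinases, STAT transcription factors and SOCS proteins form the relay that carries cytokine signals from the cell surface to the nucleus, and 9 of their genes were followed here: Jak1, Jak2, Tyk2, Stat2, Stat3, Socs1, Socs2, Socs3 and Cish. They were chosen by gene name, as the rows whose Ensembl identifiers GENCODE release M21 assigns to these symbols, and they make up 9 of the 55426 features in the deposited table. RNA was sequenced from pancreatic stellate cells (PSCs), the fibroblast precursors of the pancreas, isolated from wild-type C57BL/6 mice and used as primary lines at low passage. All PSCs shared a transwell with mT3 organoids, a mouse pancreatic ductal adenocarcinoma (PDAC) line grown in the other compartment, and were kept for 48 h at either 21% O2 (normoxia, n = 3) or 1% O2 (hypoxia, n = 3). There was no sample of PSCs without tumor organoids in these data, so every comparison is of hypoxia with normoxia in coculture. Whether the 3 samples of a group are separate PSC lines is not given for the RNA-seq, so p-values measure only the spread between these samples.

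When a cytokine such as IL6 or LIF binds a receptor that contains gp130, the JAK kinases attached to the receptor phosphorylate STAT3, which moves to the nucleus and switches on target genes. Socs3 is among those targets, and its protein binds gp130 and the JAKs and shuts the signal down, while CIS (encoded by Cish), SOCS1 and SOCS2 do the same mainly for growth factor and interferon receptors. The RNA of a feedback gene therefore serves as a common readout of signalling, although none of these RNA levels measures phosphorylation of a STAT protein. The comparison asked whether hypoxic PSCs, which hold more RNA for the ligands IL6 and LIF, also differ in the kinases, in the STATs and in the feedback genes.

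Jak2, Tyk2, Stat3 and Cish RNA rose in hypoxia, by 1.83-fold, 1.52-fold, 1.57-fold and 2.02-fold. The feedback gene of gp130 signalling, Socs3, stood at 117 ± 14.7 CPM (counts per 1000000 counts of the scaled library) in normoxia and 138 ± 13.2 in hypoxia (mean ± SD, n = 3). This difference did not pass the test in the main fit, which did not block on replicate number. Socs1 and Stat2 did not pass it either. A gene was called changed when edgeR's quasi-likelihood test gave a Benjamini-Hochberg adjusted p under 0.05 over all 16207 genes tested and the fold was beyond 1.5 in either direction. All 9 genes passed the filter on low counts, 4 of the 9 were called higher (44.4%), and 18.9% of all genes tested were called higher. By the same edgeR test none of the 9 was called lower, against 15.3% of all genes. DESeq2 called none lower either, and at an unadjusted p under 0.05 there was 1 of the 9 lower, Socs2, and 6 higher, against 33.1% and 33.4% of all genes. The median log2 fold change of the 9 genes was 0.39, and that of all genes tested was -0.00 with quartiles of -0.39 and 0.44. By the adjusted p alone 6 of the 9 passed, against 62.7% of all genes, and with a fold limit of 2 in place of 1.5 only Cish was called, against 19.5%. Normoxic and hypoxic samples did not overlap for 5 of the 9 genes, against 68.9% of all genes tested. In all 5 the hypoxic samples were the higher ones, which is 5 of the 9 genes against 34.9% of all genes tested. The share of the 9 genes called higher thus lay above the background, the share by adjusted p alone was near it and the share without overlap was below it.

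Library totals were 24749601 to 25914892 counts in normoxia and 25847719 to 31925054 in hypoxia, so that 3 counts correspond to 0.0943 to 0.122 CPM, a limit that covers counting error only. All 10 hypoxia response genes examined rose, and the 12 fibroblast and stellate cell markers summed to 28462 to 35660 CPM in normoxia and 30496 to 35343 CPM in hypoxia, most of it from Col1a1, Col1a2 and Col3a1. Of these 12, Pdgfra and Pdpn rose and Lum and Thy1 fell. Of 14 macrophage and other leukocyte markers, 11 were tested and 6 fell, among them Lyz2. Itgam, Cd14, Cd53 and Csf1r had log2 fold changes of -0.00, 0.08, -0.14 and -0.24 and did not pass. Ptprc leaned lower, with a log2 fold change of -0.59, and did not pass either (edgeR adjusted p = 0.0514). The sum of the 14 was 867 to 1509 CPM in normoxia and 461 to 803 CPM in hypoxia, most of it from Lyz2, and was highest in replicate 2 of each group. Of the lymphocyte markers, Cd3e and Ms4a1 were at 0 in all samples, and Cd79a had 0 to 2 counts in normoxia and 6 to 12 in hypoxia. The 8 epithelial markers summed to 0.835 to 2.31 CPM in normoxia and 21.1 to 24.8 CPM in hypoxia, nearly all of the latter from Krt19, with Epcam at no more than 1 count in a sample. The 6 endothelial markers summed to 14.3 to 19.2 and 20.5 to 29.3 CPM, with Tek and Vwf higher, Cldn5 and Kdr lower, and Pecam1 and Cdh5 not past the test. The part of these other cell types in the results below was not tested, and in such bulk RNA fewer cells of a type and less RNA per cell cannot be told apart.

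The DNA just before the start of Socs3 and of Cish is shown because these are the feedback genes with the highest RNA level and with the largest fold, and because they alone among the 8 genes with a promoter sequence held the motifs searched for. RefSeq promoter sequences on GRCm38.p6 were found for 8 of the 9 genes, all but Socs2. The 250 bases before each start were searched on both strands for TTCNNNGAA, the core that STAT dimers bind, and for ACGTG, the core of the hypoxia response element. The windows below are written 5′ to 3′ on the strand of the gene, with motif matches in capitals. They are chr11:117969367-117969616 on the minus strand for Socs3 and chr9:107296409-107296658 on the plus strand for Cish.
Socs3: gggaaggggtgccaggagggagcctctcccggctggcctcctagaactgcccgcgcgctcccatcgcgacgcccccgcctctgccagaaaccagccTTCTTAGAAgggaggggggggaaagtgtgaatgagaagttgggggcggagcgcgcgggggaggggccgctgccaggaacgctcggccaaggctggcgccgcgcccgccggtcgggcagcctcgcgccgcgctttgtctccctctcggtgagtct
Cish: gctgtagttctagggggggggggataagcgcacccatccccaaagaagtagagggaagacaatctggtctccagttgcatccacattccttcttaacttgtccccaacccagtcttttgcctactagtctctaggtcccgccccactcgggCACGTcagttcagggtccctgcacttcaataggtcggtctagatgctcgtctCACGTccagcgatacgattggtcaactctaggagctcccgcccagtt
The Socs3 window held 1 STAT match, TTCTTAGAA, whose first base lies at -154 from the RefSeq start, and no ACGTG. The Cish window held no STAT match and 2 copies of CACGT, which reads ACGTG on the opposite strand, at -99 and -47. No match of either kind was found in the same windows of Jak1, Jak2, Tyk2, Stat2, Stat3 and Socs1. Of 32851 promoter windows of this length, 7.02% held a STAT match, 16.6% held ACGTG and 6.81% held it at least 2 times. Among the 14219 windows of genes tested here, the shares were 5.94%, 21.1% and 9.23%. The starts differ between annotations, since the RefSeq start used for Socs3 lies 180 bases upstream of the start of the GENCODE coding transcript and that for Cish 51 bases upstream of the nearest one. These matches describe the letters of the windows, and no binding was measured.

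Of the 3 kinases among the 9 genes, Jak2 and Tyk2 rose and Jak1 differed by less than the fold limit. Jak1, the kinase on which gp130 signalling mainly depends, lies on GRCm38 at chr4:101152367-101265282 on the minus strand. It measured 437, 373 and 416 CPM in normoxic replicates 1 to 3 and 531, 549 and 530 CPM in hypoxic replicates 1 to 3. Every hypoxic sample was above every normoxic one. The mean went from 409 ± 32.8 to 537 ± 11.0 CPM, a 1.31-fold difference (log2 fold change 0.39, SE 0.07, 95% interval 0.24 to 0.55, edgeR adjusted p = 0.000897), which passed on its adjusted p and not on its size.

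Jak2, the kinase of the growth hormone, prolactin and erythropoietin receptors that also serves gp130, lies at chr19:29251828-29313080 on the plus strand. Its normoxic samples held 96.7, 89.4 and 96.6 CPM and its hypoxic samples 171, 168 and 178 CPM. The 2 groups lay far apart, with little spread inside either. Its mean rose from 94.2 ± 4.18 to 172 ± 5.43 CPM (log2 fold change 0.87, SE 0.06, 95% interval 0.74 to 0.99, edgeR adjusted p = 2.06e-06).

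Tyk2, the partner kinase of interferon and IL6-type receptors, lies at chr9:21104068-21131243 on the minus strand. It measured 35.1, 41.3 and 36.1 CPM in normoxia and 56.6, 56.3 and 57.7 CPM in hypoxia. The hypoxic samples were nearly equal and all above the normoxic ones, of which replicate 2 was the highest. Tyk2 rose from 37.5 ± 3.32 to 56.9 ± 0.761 CPM, a 1.52-fold change just past the fold limit (log2 fold change 0.60, SE 0.07, 95% interval 0.45 to 0.76, edgeR adjusted p = 7e-05). The fold was under 1.5 in 7 of the 17 alternative fits, while the adjusted p stayed under 0.05 in all of them.

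**Figure D1:**
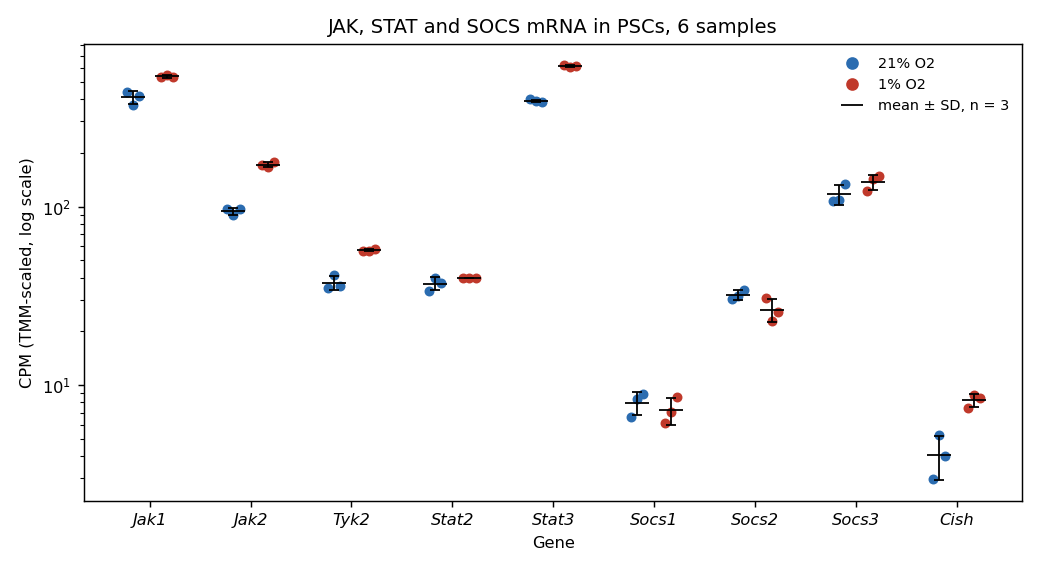
RNA level of each of the 9 genes in CPM (y axis, log scale) in the 3 normoxic (21% O2) and 3 hypoxic (1% O2) samples. Points are single samples, and the lines give the mean and SD (n = 3). The hypoxic samples lie above all normoxic ones for Jak1, Jak2, Tyk2, Stat3 and Cish, and the groups overlap for Stat2, Socs1, Socs2 and Socs3.

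Of the 2 STAT genes, Stat3 rose and Stat2 did not pass the test. Stat3, the transcription factor activated by IL6 and LIF, lies at chr11:100885098-100939540 on the minus strand. Its level was 398, 389 and 388 CPM in normoxia and 623, 608 and 617 CPM in hypoxia. The replicates of each group were within a few percent of each other and the groups did not overlap. The mean rose from 391.7 ± 5.83 to 616 ± 7.51 CPM (1.57-fold, log2 fold change 0.65, SE 0.05, 95% interval 0.54 to 0.77, edgeR adjusted p = 7.74e-06). Stat3 RNA is itself known as a target of STAT3, so its level is also one of the feedback readouts.

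Stat2, a transcription factor of the type I interferon response, lies at chr10:128270559-128292849 on the plus strand. It stood at 33.8, 39.97 and 37.3 CPM in normoxia and at 39.9, 40.05 and 39.9 CPM in hypoxia. The hypoxic samples were almost identical and level with the highest normoxic sample, so the groups overlapped. The means were 37.0 ± 3.09 and 39.9 ± 0.0917 CPM (log2 fold change 0.11, 95% interval -0.05 to 0.26, edgeR adjusted p = 0.192).

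Among the feedback genes Cish rose, Socs2 passed on its adjusted p alone in the downward direction, and Socs1 and Socs3 did not pass. Socs3 lies at chr11:117966079-117970047 on the minus strand. It measured 108, 109 and 134 CPM in normoxia and 123, 143 and 148 CPM in hypoxia, from 2802 to 4704 counts per sample. Normoxic replicate 3 was above hypoxic replicate 1, so the groups overlapped. The difference was 1.18-fold (log2 fold change 0.24, SE 0.10, 95% interval 0.02 to 0.46, edgeR adjusted p = 0.0594). Over the 17 alternative fits the adjusted p of Socs3 ran from 0.0103 to 0.441, and in none of them was the fold beyond 1.5. Blocking on replicate number in edgeR gave the lowest, 0.0103, and a correction for GC content gave the highest, 0.441, with a log2 fold change of 0.09. The upper end of its interval in the fit without the block was a fold of 1.37, so a fold as large as the 1.57 of Stat3 lay outside that interval.

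Cish lies at chr9:107296026-107302784 on the plus strand and encodes CIS, the inhibitor of receptors that signal through STAT5. It held few counts in every sample, with 2.96, 5.24 and 4.02 CPM in normoxia and 7.46, 8.81 and 8.45 CPM in hypoxia. These levels rest on 77, 138 and 99 counts and on 190, 276 and 269 counts. All hypoxic samples were above the normoxic ones, and normoxic replicate 2 came nearest. Cish rose from 4.07 ± 1.14 to 8.24 ± 0.698 CPM, the largest fold of the 9 genes (log2 fold change 1.02, SE 0.19, 95% interval 0.59 to 1.45, edgeR adjusted p = 0.00136). Leaving out 1 replicate at a time moved its log2 fold change between 0.83 and 1.24.

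Socs2, the inhibitor of growth hormone receptor signalling, lies at chr10:95385362-95417180 on the minus strand. Its values were 30.2, 31.7 and 34.0 CPM in normoxia and 30.6, 22.9 and 25.6 CPM in hypoxia. Hypoxic replicate 1 lay within the normoxic range and the other hypoxic samples below it. The means were 31.97 ± 1.93 and 26.4 ± 3.92 CPM, a fold of 0.824 that did not reach the limit (log2 fold change -0.28, SE 0.10, 95% interval -0.51 to -0.05, edgeR adjusted p = 0.0395). The adjusted p of Socs2 ran from 0.00534 to 0.128 over the alternative fits, the latter without hypoxic replicate 2.

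Socs1, the inhibitor of interferon and JAK signalling, lies at chr16:10782240-10785536 on the minus strand. It measured 6.66, 8.35 and 8.89 CPM in normoxia and 6.13, 7.02 and 8.58 CPM in hypoxia. The groups overlapped almost entirely. The means of 7.97 ± 1.16 and 7.24 ± 1.24 CPM gave a log2 fold change of -0.13 with a 95% interval of -0.49 to 0.22 (edgeR adjusted p = 0.486).

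**Figure D2:**
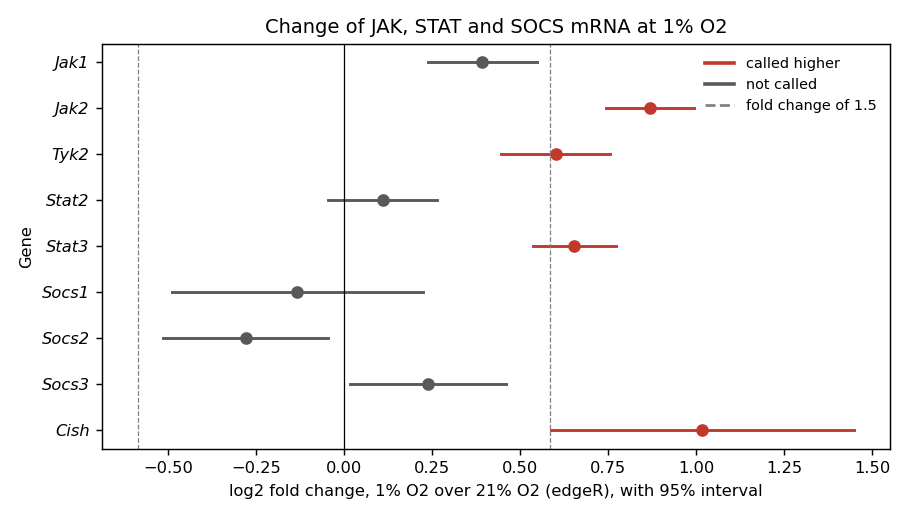
Log2 fold change of 1% O2 over 21% O2 (x axis, edgeR) with its 95% interval, for the 9 genes, coloured by call, with dashed lines at a fold of 1.5 in each direction. The interval of Jak2 lies clear of the upper line, that of Cish begins just past it, those of Tyk2 and Stat3 cross it, and that of Socs3 ends below it at 0.46.

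Ratios of counts within a library do not depend on scaling between libraries, and they set the feedback genes against their STAT and their ligands. There were 8 ratios of counts, chosen after the values were seen, and with 3 samples against 3 the smallest p an exact two-sided permutation test allows is 0.1 (0.114 after Benjamini-Hochberg adjustment over the 8). Counts of Socs3 per count of Stat3 were 0.271, 0.281 and 0.345 in normoxia and 0.197, 0.235 and 0.240 in hypoxia. The hypoxic ratios were all lower, by 0.41 on the log2 scale (SE 0.14, exact permutation p = 0.1). Counts of Socs3 per count of Lif were 12.9, 10.02 and 14.0 in normoxia and 1.55, 1.16 and 1.2 in hypoxia, and per count of Il6 they were 13.5, 14.0 and 12.1 against 4.60, 4.06 and 2.84. Every hypoxic sample held fewer Socs3 counts for each ligand count than any normoxic sample. Lif and Il6 rose 11.3-fold and 4.26-fold while Socs3 differed by 1.18-fold, so these ratios mainly restate the rise of the ligands. Cish counts per Socs2 count were higher in every hypoxic sample, at 0.0981, 0.165 and 0.118 in normoxia and 0.244, 0.384 and 0.330 in hypoxia.

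The same was done for the kinases and the STATs. Jak2 counts per Jak1 count were 0.221, 0.240 and 0.232 in normoxia and 0.321, 0.305 and 0.336 in hypoxia, with no overlap. Tyk2 counts per Jak1 count were 0.0803, 0.111 and 0.0868 against 0.107, 0.102 and 0.109, and overlapped (exact permutation p = 0.4). Stat2 counts per Stat3 count were 0.0848, 0.103 and 0.0962 in normoxia and 0.0640, 0.0658 and 0.0647 in hypoxia, again without overlap.

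Levels of different genes can be compared only per length, as CPM per kilobase of merged exons. On that scale the order in normoxia was Jak1 (56.6 ± 4.54), Stat3 (41.1 ± 0.612), Socs3 (40.5 ± 5.07), Jak2 (18.7 ± 0.830), Stat2 (6.25 ± 0.522), Tyk2 (5.46 ± 0.484), Socs2 (3.35 ± 0.202), Socs1 (2.74 ± 0.399) and Cish (0.635 ± 0.177). The samples of Stat3 and Socs3 overlapped, as did those of Stat2 and Tyk2, so on merged exons these neighbours in the order did not differ beyond their spread. In hypoxia the order was Jak1 (74.3 ± 1.52), Stat3 (64.7 ± 0.789), Socs3 (47.7 ± 4.57), Jak2 (34.2 ± 1.08), Tyk2 (8.28 ± 0.111), Stat2 (6.74 ± 0.0155), Socs2 (2.77 ± 0.411), Socs1 (2.49 ± 0.427) and Cish (1.28 ± 0.109). There Stat3 stood clear of Socs3 and Tyk2 above Stat2, while Socs2 and Socs1 overlapped. Even after its rise Cish was the lowest of the 9 in CPM per kilobase, and Socs3 was the most abundant feedback gene in both groups. With the length of the longest transcript in place of merged exons all 9 genes kept their places in both orders, but the overlaps differed. Stat3 and Socs3 in normoxia and Socs2 and Socs1 in hypoxia then lay apart, Stat2 and Tyk2 in normoxia still overlapped, and Tyk2 and Socs2 in normoxia did so as well.

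Of the other 10 JAK, STAT and SOCS genes, 9 were tested, and Jak3 and Stat6 rose. Jak3, the kinase that pairs with the common gamma chain, held 17.2, 34.7 and 24.3 CPM in normoxia and 91.2, 86.4 and 98.0 CPM in hypoxia. That is a 3.61-fold rise with groups far apart (log2 fold change 1.85, SE 0.20, edgeR adjusted p = 4.58e-05), and 404 bases of its exons are shared with Insl3, which had at most 34 counts in a sample. Summing the 4 JAK kinases in CPM per kilobase, Jak1 made up 66.1 ± 2.87% in normoxia and 55.5 ± 1.37% in hypoxia, Jak2 21.9 ± 0.244% and 25.5 ± 0.612%, Jak3 5.61 ± 2.16% and 12.8 ± 0.721%, and Tyk2 6.41 ± 0.822% and 6.19 ± 0.0447%. The Jak1 share was lower in hypoxia although its CPM level was higher.

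Stat6, the IL4-activated STAT, measured 125, 124 and 127 CPM in normoxia and 191, 204 and 190 CPM in hypoxia (log2 fold change 0.64, SE 0.05, edgeR adjusted p = 9.2e-06). The hypoxic samples were all above the normoxic ones, as for Stat3.

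Upstream, 5 of 9 tested ligands of the gp130 family rose, and 3 were called after a correction for GC content. Il6 went from 8.95 ± 1.84 to 38.0 ± 12.95 CPM (log2 fold change 2.09, SE 0.24, edgeR adjusted p = 7.15e-05). Lif went from 9.59 ± 1.27 to 108 ± 25.5 CPM (log2 fold change 3.50, SE 0.18, edgeR adjusted p = 7.05e-07). Il11, a gp130 ligand of fibroblasts, and Clcf1 were also among the 5, and Il11 went from 1.90 ± 0.698 to 4.20 ± 0.645 CPM. Osm, a ligand made mainly by leukocytes, stood at 1.07 and 0.983 CPM and did not pass.

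Of 7 tested receptors of that family, 1 rose and 1 fell. Osmr, the oncostatin M receptor subunit, measured 256, 232 and 271 CPM in normoxia and 483, 497 and 523 CPM in hypoxia. Lifr, the LIF receptor subunit, measured 83.2, 81.4 and 87.7 CPM in normoxia and 39.7, 43.8 and 42.1 CPM in hypoxia. Neither gene's groups overlapped, and the log2 fold changes were 0.99 (SE 0.07, edgeR adjusted p = 4.06e-06) and -1.005 (SE 0.06, edgeR adjusted p = 1.25e-06). The ligand Lif therefore rose while the RNA for its own receptor subunit fell, and Osmr counts per Lifr count went from 3.08, 2.85 and 3.09 to 12.1, 11.3 and 12.4. The shared subunit gp130 (Il6st) was at 681 ± 41.1 and 581 ± 7.28 CPM, below the fold limit (log2 fold change -0.23, edgeR adjusted p = 0.0103), and Il6ra had a log2 fold change of 0.22 (edgeR adjusted p = 0.0311).

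**Figure D3:**
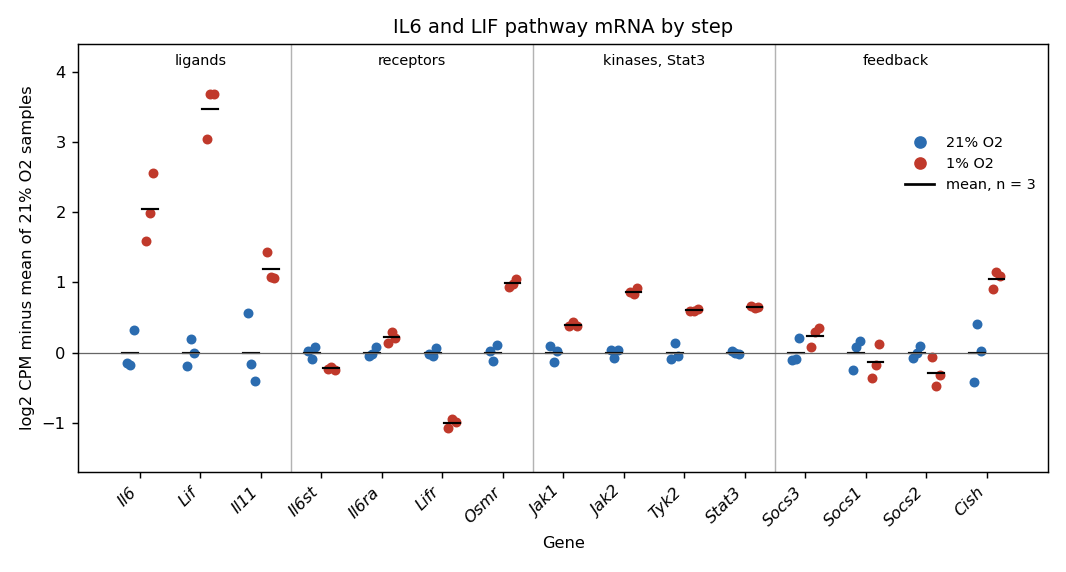
Log2 CPM of each sample minus the mean of the normoxic samples (y axis) for ligands, receptors, kinases with Stat3, and feedback genes in the order of the pathway. Points are single samples and lines are means (n = 3). The ligands Lif and Il6 lie highest, Lifr is the lowest, and of the feedback genes Cish alone has all hypoxic samples above the normoxic ones.

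Other receptors that couple to JAKs included 18 tested genes, of which 7 rose and 3 fell. The interferon receptor subunit Ifnar2 went from 61.2 to 130 CPM and the IL10 receptor subunit Il10rb from 30.0 to 63.6 CPM, although both share exon bases with the readthrough gene Gm21970. Prlr, the prolactin receptor, which uses Jak2 and induces Cish through STAT5, fell from 38.4 ± 11.3 to 2.0 ± 0.516 CPM (log2 fold change -4.24, SE 0.25, edgeR adjusted p = 1.22e-06). Of 14 phosphatases, PIAS proteins and adaptors, 2 rose and 1 fell, and 1 was called without hypoxic replicate 2. Ptpn2, a phosphatase of JAK1 and STAT3, went from 21.6 to 34.0 CPM (log2 fold change 0.65, edgeR adjusted p = 0.000138). Ptpn6, found mainly in leukocytes, went from 11.0 to 3.71 CPM (log2 fold change -1.56, edgeR adjusted p = 0.000392). Among the normoxic samples Ptpn6, Cish, Jak3, Tyk2 and the leukocyte marker sum were all highest in replicate 2. Stat2 and Prlr were highest in replicate 2 of each group as well. In normoxia Jak1, Jak2 and Stat3 were highest in replicate 1, and Socs1, Socs2 and Socs3 in replicate 3. Among the hypoxic samples the marker sum and Cish were again highest in replicate 2, but Ptpn6 was highest in replicate 3 and Jak3 and Tyk2 were lowest in replicate 2.

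Known targets of STAT3, other than the 9 genes, moved in both directions. Of 24 tested, 8 rose and 5 fell, against 18.9% higher and 15.3% lower of all genes tested. The called share was 54.2% against 34.2% of all genes tested, and the median log2 fold change was 0.27. Lcn2, an iron-binding acute phase protein, rose from 2.57 ± 0.959 to 60.8 ± 14.0 CPM (log2 fold change 4.56, edgeR adjusted p = 8.22e-07), and Saa3, an acute phase gene with close copies in the genome, from 845 ± 181 to 4020 ± 354 CPM (log2 fold change 2.25). Vegfa, a known hypoxia target as well, rose by 2.01 on the log2 scale. Lrg1, Birc5 and Ccnd1 fell, Lrg1 from 26.2 to 4.57 CPM (log2 fold change -2.49) and the cyclin Ccnd1 from 35.5 to 15.1 CPM (log2 fold change -1.22). Among the 6 known STAT5 targets Pim1 rose, and Igf1, Igfals and Ccnd1 fell. Pim1 and Ccnd1 are also counted among the STAT3 targets. Igf1 went from 673 ± 41.5 to 177 ± 31.7 CPM (log2 fold change -1.93, edgeR adjusted p = 1.81e-06). Cish thus rose while Igf1, Igfals and Ccnd1 fell. Of 17 interferon targets tested, 2 rose and 5 fell, and 4 were called without normoxic replicate 3, with Gbp2 at 13.7 and 34.4 CPM and Ifit3 at 7.76 and 3.78 CPM.

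**Figure D4:**
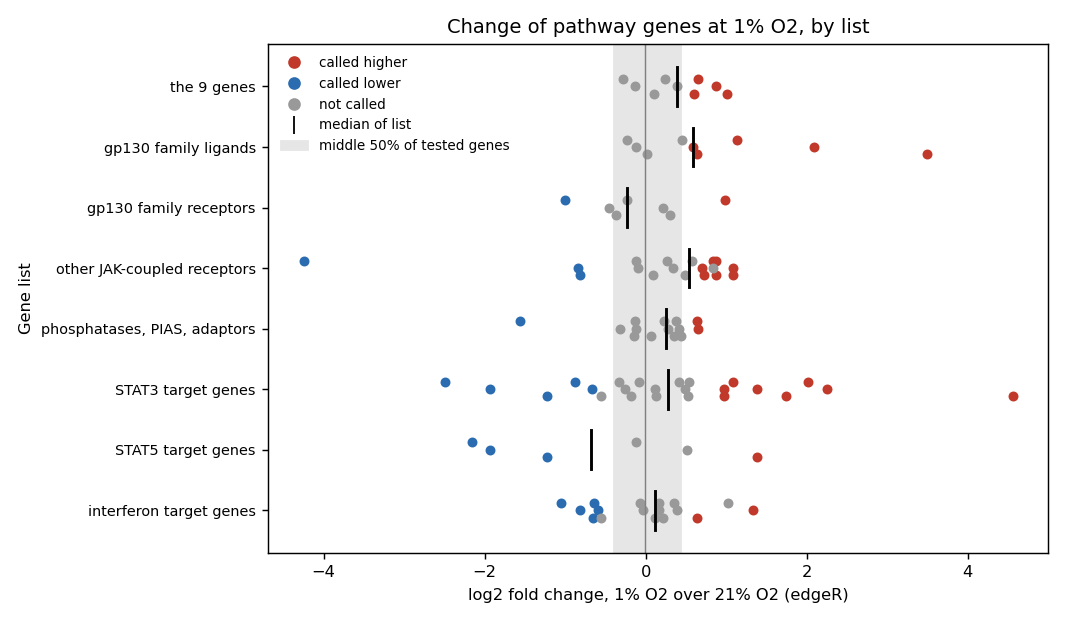
Log2 fold change of 1% O2 over 21% O2 (x axis, edgeR) of every tested gene in each list (points, coloured by call), with the list's median as a line and the middle 50% of all tested genes, from -0.39 to 0.44, shaded. The 9 genes have a median of 0.39 inside the shaded range, and the STAT3 targets, with a median of 0.27, spread in both directions.

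Genes whose pattern over the 6 samples was most like that of a member were ranked by Pearson's r of log2 CPM among 14238 tested genes with a mean of at least 1 CPM. The points share libraries and a split into 2 groups, so r is given as a description. For Stat3 the closest were Gtf2e2, Gopc and Btc (r = 0.9996, 0.9995 and 0.9995), and 2398 genes had r above 0.95. For Cish they were Aspg, Gm47572 and Cnot10 (r = 0.9968, 0.9967 and 0.9966), with 847 genes above 0.95. For Socs3 only 14 genes were above 0.95, led by Tctn3, Igfbp2 and Il17ra (r = 0.9923, 0.977 and 0.9706), and thus the Socs3 profile was shared by far fewer genes than that of Stat3 or Cish.

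Exons of 4 of the 9 genes overlap those of a neighbour, and the strand setting of the counting is not given. Stat3 shares 72 bases with Stat5a and Jak1 4 bases with Raver2, each on the opposite strand. Tyk2 shares 554 bases with the antisense gene 1700084C06Rik, which had at most 5 counts in a sample, and Cish shares 479 and 261 bases with Gm17041 and Gm17040, which had at most 3.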

How the data were processed

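RNA-seq of 6 PSC samples, 3 at 21% O2 and 3 at 1% O2, was analysed, grouped by the sample labels. The authors trimmed reads with Cutadapt, mapped them to GRCm38 with STAR (2.6.1b) and deposited RSEM (1.3.1) expected counts for 55426 features, with no normalization between samples. No deposited value had a fraction, so rounding changed nothing, and the annotation release and strand setting of the counting are not given in the sources used here. Genes were named from GENCODE M21, in which 186 identifiers were not found.

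From the expected counts, genes were filtered with filterByExpr, scaled by TMM and tested with edgeR's quasi-likelihood F test (edgeR 4.0.16, limma 3.58.1, R 4.3.3) with hypoxia against normoxia and Benjamini-Hochberg adjustment over 16207 genes. Calls needed an adjusted p under 0.05 and a fold beyond 1.5. The SE of each log2 fold change was derived from the F statistic. CPM used TMM-scaled library totals. The fits were tested on simulated data. Replicates of a group differed by more than sampling noise, with a chi-square per degree of freedom of 5.68 to 22.5, and each counted as 1 sample.

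The 9 genes and the pathway lists were chosen with earlier results of these data known. Named from each list were up to 3 called genes with the largest change in each direction and the most abundant gene, plus Il6, Lif, Il11, Osm, Il6st, Il6ra, Lifr and Osmr, and the 3 genes most like Stat3, Socs3 and Cish. Clcf1, single cell type markers and genes named for sharing exons were picked with their values in view, and so were the ratios. Alternatives were other normalizations and filters, a replicate block, DESeq2 (1.42.0), limma-voom, each replicate left out, a GC correction and other fold limits. Promoter sequences came from RefSeq. Some genes of the lists are not reported here.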

Additional observations from a re-analysis of the deposited data

How the results depend on the processing

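Of 345 alternative values, 322 kept their direction and their side of the threshold or, for counts, stayed within 1.5 times, and none reversed. The Tyk2 log2 fold change fell below the fold limit with upper-quartile normalization (0.58), library totals only (0.58), no filter on low counts (0.58), and the GC correction without (0.50) and with the replicate block (0.50), and leaving out 1 replicate gave 0.55 to 0.67, below the limit without normoxic replicate 1 or 3. Leaving out 1 replicate gave 0.33 to 0.44 for Jak1, 0.83 to 0.88 for Jak2, 0.64 to 0.66 for Stat3, 0.04 to 0.16 for Stat2, -0.28 to -0.03 for Socs1, -0.40 to -0.19 for Socs2, 0.18 to 0.34 for Socs3 and 0.83 to 1.24 for Cish. It gave 3 to 4 called among the 9 genes, 5226 to 5662 among all genes, 3 among other JAK, STAT and SOCS genes, 4 to 5 ligands, 2 to 3 gp130 receptors, 9 to 11 other receptors, 1 to 3 phosphatases, PIAS proteins and adaptors, 12 to 14 STAT3 targets, 4 STAT5 targets and 4 to 9 interferon targets. With a fold limit of 2, 1 of the 9 genes (Cish), 3156 of all genes, 3 ligands, 1 gp130 receptor, 3 other receptors, 1 phosphatase or adaptor and 2 interferon targets were called. With no fold limit the counts were 10168 of all genes, 8 other JAK, STAT and SOCS genes, 5 gp130 receptors, 11 phosphatases, PIAS proteins and adaptors and 20 STAT3 targets. The GC correction left 3 ligands called, without and with the replicate block. The cause of these shifts was not tested, beyond the limits themselves.

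The labels give both groups the replicate numbers 1 to 3 without saying that a number is shared between cultures. Deviations from the group means of same-numbered samples correlated at 0.142, 0.139 and 0.0378 over 16207 genes, not all above 0.1, so the numbers were not taken as pairs, although each sample correlated best with its own number. With the replicate block 4 of the 9 genes and 5572 of all genes were called, and the log2 fold change of Tyk2 was 0.60. Socs3, at a log2 fold change of 0.24 (edgeR adjusted p = 0.0103), then passed on its adjusted p and not on its size. Counts were low for Cish, at 77 to 276 per sample, and for Socs1, at 156 to 273, which limits the precision of both.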
